A study of Mus musculus with 8 samples.

Results

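The genes described here are 32 genes of glycolysis and of the response to low oxygen, among 57132 genes in the count table. They were chosen by name, each at the identifier with most reads, and all 32 were found and passed the filter on low counts. They fall into 6 roles: glucose uptake and phosphorylation (4 genes), the enzymes from Gpi1 to Pkm (13), the Pfkfb regulators (2), the lactate and pyruvate branch (4), oxygen sensing (3) and other hypoxia targets (6). The libraries came from tumour tissue of mice carrying KPC tumours under the skin. KPC tumours model pancreatic cancer in the mouse. In 4 libraries, called PDT (photodynamic therapy), the mice had received Ce6@D4-EV and light. The dye chlorin e6 (Ce6) turns light into reactive oxygen species, and D4-EV is the name the labels give to what carries it. In the other 4, called PBS, they had received buffered saline. Strain, sex, age, doses and the time of harvest are not given in the labels, which call the tissue sorted without naming a gate. The comparison asks how treated tumours differ from saline controls, and light alone or unlit carrier were not analysed here. The labels do not state that each sample was its own animal, and the p-values then reflect only the spread among these samples, which may be technical.

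Glycolysis splits glucose into pyruvate in the cytosol, and lactate dehydrogenase then turns pyruvate into lactate, which leaves the cell through monocarboxylate transporters. When oxygen is short, the prolyl hydroxylases that mark HIF-1α for destruction slow down, and the stabilised HIF factors switch on glucose transporters, most glycolytic enzymes and genes of acid handling and mitochondrial turnover. Pancreatic tumours are known for poorly perfused, hypoxic regions and for heavy glucose use.

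None of the 32 genes passed the threshold. In edgeR's quasi-likelihood test 0 members had an adjusted p under 0.05, where 0.235% of the 16588 genes tested did (0.163% higher and 0.0723% lower in PDT), and the smallest adjusted p was 0.153. At an unadjusted p under 0.05 there were 4 members, against 16.5% of all genes tested. These were Slc16a1, Kdm3a and Slc2a1, at lower mean levels in PDT (3 of 32, against 7.87% of all genes), and Adm, at a higher one (1 of 32, against 8.63%). DESeq2 called 0 of the 32 (5.24% of all genes) and limma-voom 0 (1.01%). The PDT and PBS libraries overlapped in all 32 members, whereas they did not in 10.1% of the genes tested (5% higher and 5.12% lower in PDT). The median log2 difference of the members was 0.038, with 18 above and 14 below 0. That of all genes was −0.0022, with 49.8% above 0. The 95% intervals of the differences reached from −1.502 to 2.005 across members, both ends belonging to the sparse Eno2.

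**Figure D1:**
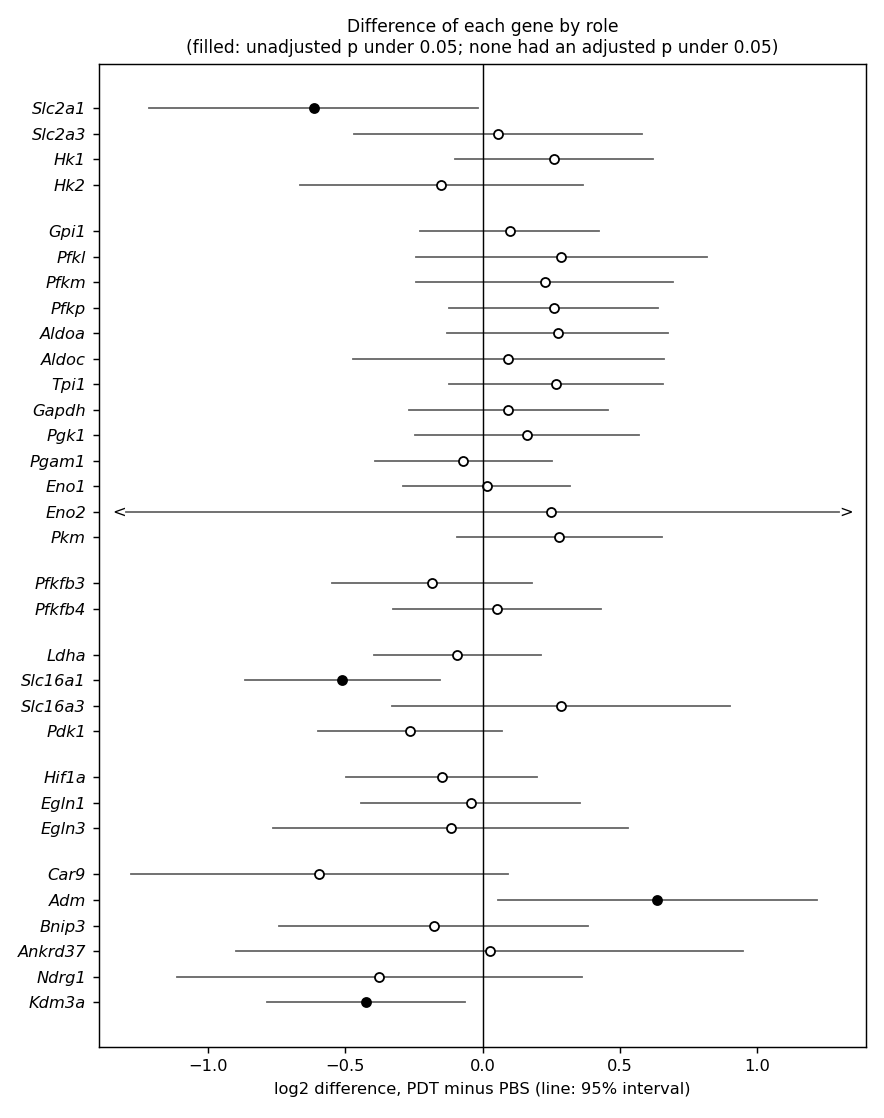
Log2 difference, PDT minus PBS, of each of the 32 genes on the horizontal axis, grouped by role from top to bottom, with its 95% interval from edgeR's quasi-likelihood fit as a line. Filled points are the 4 genes with an unadjusted p under 0.05, and the interval of Eno2 runs past both edges.

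The sequences upstream of the 4 members with the smallest p are shown because HIF factors bind the short core ACGTG or GCGTG near hypoxia-inducible genes. RefSeq promoters of the GRCm38.p6 build, 250 bases before to 50 after the start, were found for 30 of the 32 members. The first promoter listed held ACGTG or GCGTG on either strand in 24 of 30 members (80%), against 43.8% of the first promoters of 27025 genes, and ACGTG in 17 of 30 (56.7%), against 19.7%. The members were chosen as hypoxia and glycolysis genes, and the genes compared were not matched to them in base composition or level. Each line below gives the 250 bases before the start, with both cores and their reverse complements, CACGT and CACGC, in capitals. In Slc16a1 the first capitals are ACGTG and CACGT overlapping by 4 bases. The windows are chr3:104638414-104638663 on the plus strand for Slc16a1, chr6:71632918-71633167 on the minus strand for Kdm3a, chr7:110627407-110627656 on the plus strand for Adm and chr4:119108495-119108744 on the plus strand for Slc2a1, in that build, which is not the build of the counts. In the printed bases Kdm3a and Adm held GCGTG or its reverse complement, with no ACGTG. A match of letters is a description and not a bound site.
Slc16a1: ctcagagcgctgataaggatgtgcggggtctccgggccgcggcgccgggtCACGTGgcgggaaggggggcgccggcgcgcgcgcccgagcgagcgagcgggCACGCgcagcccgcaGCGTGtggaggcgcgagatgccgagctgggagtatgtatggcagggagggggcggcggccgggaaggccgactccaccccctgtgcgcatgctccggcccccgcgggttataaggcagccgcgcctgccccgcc
Kdm3a: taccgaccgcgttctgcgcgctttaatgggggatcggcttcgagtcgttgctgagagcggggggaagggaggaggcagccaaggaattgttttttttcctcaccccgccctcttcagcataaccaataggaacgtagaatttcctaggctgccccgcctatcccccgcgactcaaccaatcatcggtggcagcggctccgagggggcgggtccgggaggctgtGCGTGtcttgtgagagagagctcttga
Adm: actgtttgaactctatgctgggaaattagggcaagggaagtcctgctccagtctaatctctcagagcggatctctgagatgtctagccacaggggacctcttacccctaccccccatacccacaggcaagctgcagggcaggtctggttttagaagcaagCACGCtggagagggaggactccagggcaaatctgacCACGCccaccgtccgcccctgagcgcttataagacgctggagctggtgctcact
Slc2a1: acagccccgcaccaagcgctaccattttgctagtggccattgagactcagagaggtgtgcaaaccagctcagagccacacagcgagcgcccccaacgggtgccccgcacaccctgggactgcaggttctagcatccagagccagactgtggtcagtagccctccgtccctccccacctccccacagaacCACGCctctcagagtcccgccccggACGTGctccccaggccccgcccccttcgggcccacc

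Total counts ran from 39026840 to 48804713 reads in the PDT libraries and from 35742024 to 40337306 in the PBS libraries. Levels are given as CPM, the read count scaled to library size after TMM normalisation, and differences as log2 of PDT over PBS with their standard error. No library held 0 reads of any member, the lowest count being 6 reads of Eno2 in PBS 2. Of the cell type markers, epithelial ones summed to 3122 to 6254 CPM in PDT and 3574 to 7332 CPM in PBS, and all 9 were detected. Macrophage markers were higher in PDT without overlap, at 5106 to 6848 CPM in PDT against 2153 to 4211 CPM in PBS, with 12 of 12 means higher and 1 gene, Cd68, past the threshold. So were T and NK cell markers, at 25.2 to 33.0 CPM in PDT and 9.10 to 21.1 CPM in PBS. Neutrophil markers summed to 156 to 536 CPM in PDT and 80.6 to 223 CPM in PBS, with 9 of 10 means higher. Erythroid markers summed to 592 to 1355 CPM in PDT and 810.4 to 4445 CPM in PBS, with 7 of 8 means lower, and the groups overlapped in both sums. In libraries of mixed cells a change in the number of cells of a type and one in RNA per cell cannot be told apart. The part of these cells in the values below was not tested.

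Glucose enters through the transporters Slc2a1 and Slc2a3 and is trapped by the hexokinases Hk1 and Hk2. Slc2a1 (ENSMUSG00000028645), the widespread basal glucose transporter and a classic HIF target, was at 89.7, 42.0, 58.3 and 71.9 CPM in PDT 1 to PDT 4, against 60.1, 95.96, 149.5 and 95.7 CPM in PBS 1 to PBS 4. The highest values belonged to PBS libraries, but PBS 1 lay within the PDT range. Slc2a1 averaged 65.5 ± 20.2 CPM in PDT and 100.3 ± 36.9 CPM in PBS (SD, n = 4 each), which is −0.62 ± 0.27 on the log2 scale (SE, adjusted p = 0.288 by edgeR). With 1 library left out the difference ran from −0.79 to −0.36, the latter without PBS 3. PBS 3 also held the highest sum of epithelial markers, 7332 CPM where the rest of PBS had 3574 to 4051 CPM. The part of epithelial cells in the difference was not tested. Hk2, the inducible hexokinase of muscle and tumours, was at 89.9, 60.0, 91.0 and 98.6 CPM in PDT and at 56.7, 93.3, 134.9 and 92.1 CPM in PBS. Its log2 difference was −0.15 ± 0.24 (adjusted p = 0.819), and the PBS libraries enclosed the whole PDT range. Hk1, the constitutive form, averaged 95.3 ± 15.2 CPM in PDT and 79.6 ± 14.9 CPM in PBS (0.26 ± 0.17, adjusted p = 0.482). Slc2a3, a high-affinity transporter of neurons and blood cells, stayed low, at 5.47 to 7.604 CPM in PDT and 5.29 to 7.36 CPM in PBS.

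Of the 13 enzymes from Gpi1 to Pkm, 12 had a log2 difference above 0 and 1, Pgam1, below it. The median was 0.23, 0 passed the threshold, and 0 had an unadjusted p under 0.05. Gapdh, which oxidises glyceraldehyde phosphate, had the highest level per kilobase of exon of the 32 genes, 934 CPM per kilobase in PDT and 876 in PBS. Its libraries held 4805, 3743, 3297 and 3601 CPM in PDT and 2847, 3395, 3862 and 4375 CPM in PBS. The ranges largely coincided, with the single highest value in PDT 1 and the lowest in PBS 1, and the log2 difference was 0.093 ± 0.17 (95% interval −0.27 to 0.46, adjusted p = 0.845). A gene often used as a loading control thus varied 1.46-fold from the lowest to the highest library within PDT and 1.54-fold within PBS. Over all genes tested, which were not matched to Gapdh in level, the median of this ratio was higher, 1.59 in PDT and 1.67 in PBS.

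The enzymes with the largest estimates were Pfkl, the liver-type phosphofructokinase that commits sugar to glycolysis, at 0.29 ± 0.24, and Pkm, the pyruvate kinase that ends the pathway, at 0.28 ± 0.17. Aldoa, the main aldolase, followed at 0.27 ± 0.18, triose phosphate isomerase Tpi1 at 0.27 ± 0.18 and the platelet-type phosphofructokinase Pfkp at 0.26 ± 0.17. Adjusted p-values of these 5 ran from 0.459 to 0.616. Pgk1, the kinase that makes the first ATP of the pathway, differed by 0.16 ± 0.19. The isomerase Gpi1 came to 0.10 ± 0.15, the brain-type aldolase Aldoc to 0.094 ± 0.26, the main enolase Eno1 to 0.015 ± 0.14 and the mutase Pgam1 to −0.070 ± 0.15, with adjusted p-values of 0.737 to 0.976 for these and Pgk1. With 1 library left out the estimates ran from 0.13 to 0.47 for Pfkl, 0.13 to 0.38 for Pkm, 0.15 to 0.43 for Aldoa, 0.14 to 0.38 for Tpi1, 0.12 to 0.39 for Pfkp and 0.0091 to 0.20 for Gpi1. Without PBS 1, the lowest library for 8 of the 13 enzymes, the median was 0.099, and it was 0.12 to 0.14 without PDT 1, PDT 4 or PBS 2.

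A pair of enzymes followed other patterns. Pfkm, the muscle-type phosphofructokinase, whose exons overlap those of Senp1 and Gm26513, was at 54.8, 92.0, 48.6 and 55.4 CPM in PDT and 50.6, 71.1, 47.0 and 45.6 CPM in PBS. It was highest in replicate 2 of each group. Summed skeletal muscle markers were also highest in these libraries, at 3791 CPM in PDT 2 and 170.1 to 827 CPM in the rest of PDT, and at 1507 CPM in PBS 2 and 60.0 to 348 CPM in the rest of PBS. The part of muscle in the Pfkm values was not tested, and its log2 difference of 0.23 ± 0.21 was −0.0045 without PDT 2. Eno2, the neuronal enolase, was the lowest member, at 1.02 to 2.94 CPM in PDT and 0.143 to 4.83 CPM in PBS. Its log2 difference of 0.25 ± 0.80 came to 1.47 without PBS 4.

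The bifunctional enzymes Pfkfb3 and Pfkfb4 set the level of the sugar phosphate that activates phosphofructokinase, and both are induced by hypoxia. Pfkfb3 averaged 40.4 ± 6.02 CPM in PDT and 45.9 ± 9.05 CPM in PBS, a log2 difference of −0.18 ± 0.17 (adjusted p = 0.647). Pfkfb4 averaged 20.9 ± 1.53 CPM in PDT and 20.1 ± 4.06 CPM in PBS (0.051 ± 0.17, adjusted p = 0.928).

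At the lactate branch, Ldha was nearly level while the estimates for the lactate transporters had opposite signs, none of them called. Ldha, the lactate dehydrogenase subunit that favours lactate, was at 1949, 1512, 1302 and 1668 CPM in PDT and 1567, 1776, 1787 and 1725 CPM in PBS. The PDT libraries spanned both sides of the narrow PBS range, and the log2 difference was −0.092 ± 0.14 (95% interval −0.40 to 0.21, adjusted p = 0.811). Slc16a1 (ENSMUSG00000032902), the monocarboxylate transporter MCT1, which carries lactate in either direction, was at 69.9, 62.9, 70.4 and 63.4 CPM in PDT and 83.6, 107.3, 118.7 and 70.2 CPM in PBS. Only PBS 4 lay inside the narrow PDT range. The Slc16a1 promoter printed above holds 4 matches, with the overlapping ACGTG and CACGT counted separately. Those of Adm and Slc2a1 hold 2 each and that of Kdm3a 1. A link between matches and levels was not tested. Slc16a1 averaged 66.7 ± 4.01 CPM in PDT and 94.97 ± 22.1 CPM in PBS (SD, n = 4 each), with a log2 difference of −0.51 ± 0.16 and the smallest p of the 32 genes (adjusted p = 0.153 by edgeR, 0.0595 by DESeq2 and 0.124 by limma-voom). Without 1 library its log2 difference ran from −0.62 to −0.38, and its adjusted p over all alternatives from 0.0595 to 0.322.

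Slc16a3, the lactate exporter MCT4 of glycolytic cells, was at 97.9, 40.0, 70.5 and 105.4 CPM in PDT and 40.2, 74.7, 73.0 and 69.5 CPM in PBS. A low library stood in each group, PDT 2 and PBS 1, and the log2 difference was 0.29 ± 0.28 (adjusted p = 0.681), or 0.12 to 0.52 with 1 library left out. Pdk1 is a kinase that inhibits pyruvate dehydrogenase and is induced by HIF. It was at 88.7 to 131.7 CPM in PDT and 110.9 to 149.0 CPM in PBS (−0.26 ± 0.15, adjusted p = 0.432).

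The oxygen sensors gave no called difference either. Hif1a, the oxygen-regulated subunit of HIF-1, which is controlled mainly as protein, was at 311, 306, 249 and 198.5 CPM in PDT and 334, 307, 247 and 292 CPM in PBS. Most libraries of the groups lay in 1 range with PDT 4 below it, and the log2 difference was −0.15 ± 0.16 (adjusted p = 0.71). Egln1, the main HIF prolyl hydroxylase, was at 181.5, 101.4, 103.7 and 109.7 CPM in PDT and 116.6, 134.9, 131.7 and 127.9 CPM in PBS. PDT 1 stood above all PBS libraries and the other 3 PDT libraries below them. The log2 difference was −0.043 ± 0.18 (adjusted p = 0.944 by edgeR), and without PDT 1 it was −0.27 (adjusted p = 0.366). Egln3, the hydroxylase most strongly induced by HIF, was at 212, 79.2, 112.1 and 118.3 CPM in PDT and 91.9, 147.3, 204.5 and 122.1 CPM in PBS. Each group had a single high library, PDT 1 and PBS 3, and the log2 difference was −0.12 ± 0.30 (adjusted p = 0.897), −0.44 without PDT 1 and 0.12 without PBS 3. HIF protein was not measured here.

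Among the other hypoxia targets 4 of 6 had a log2 difference below 0, with a median of −0.28, and 0 passed the threshold. The median was −0.58 without PDT 1 and −0.039 without PBS 3, and between these, at −0.12 and −0.17, without PDT 2 or PDT 3. Kdm3a (ENSMUSG00000053470), an oxygen-dependent histone demethylase that is itself induced by HIF, was at 88.1, 77.7, 78.0 and 63.4 CPM in PDT and 75.8, 104.6, 106.0 and 126.5 CPM in PBS. The groups overlapped through PBS 1 alone, and the log2 difference was −0.43 ± 0.16 (adjusted p = 0.221 by edgeR). Without 1 library it ran from −0.55 to −0.30. Adm (ENSMUSG00000030790), the precursor of the vessel-widening peptide adrenomedullin, was at 16.8, 13.4, 8.83 and 9.78 CPM in PDT and 5.93, 6.53, 8.36 and 10.5 CPM in PBS. PBS 4 exceeded PDT 3 and PDT 4, and the log2 difference was 0.64 ± 0.27 (adjusted p = 0.259 by edgeR), with values of 0.45 to 0.83 when 1 library was left out.

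Car9, the membrane carbonic anhydrase that buffers acid outside hypoxic cells, was at 84.2, 46.8, 63.7 and 70.9 CPM in PDT and 60.8, 116.7, 165.9 and 57.6 CPM in PBS. PBS 2 and PBS 3 were high and the other PBS libraries lay among the PDT ones. The log2 difference was −0.595 ± 0.31 (adjusted p = 0.381 by edgeR). With 1 library left out it ran from −0.77 to −0.24, the latter without PBS 3. Ndrg1, a stress-induced gene of epithelial cells, was at 221, 83.8, 117.8 and 134.0 CPM in PDT and 118.6, 160.6, 316 and 127.1 CPM in PBS. PBS 3 was the highest library, as it was in Car9 and in epithelial markers. The log2 difference of −0.38 ± 0.34 was 0.041 without that library. Within PDT the epithelial sum was highest in PDT 4, at 6254 CPM. Ndrg1 and Car9 were highest in PDT 1, where that sum was 4741 CPM. The part of epithelial cells in these values was not tested.

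Bnip3, a receptor for the removal of mitochondria, was at 193.5, 86.7, 81.0 and 89.4 CPM in PDT and 105.6, 118.7, 142.3 and 143.2 CPM in PBS. As with Egln1, PDT 1 lay above every PBS library and the 3 others below every PBS library. The log2 difference was −0.18 ± 0.26 (adjusted p = 0.799), and without PDT 1 it was −0.56 (adjusted p = 0.208). With 1 library left out it ran from −0.56 to −0.047. Ankrd37, a HIF target that encodes a small ankyrin protein and whose exons overlap those of Ufsp2, was at 28.6, 6.75, 9.34 and 10.6 CPM in PDT and 9.71, 8.77, 19.3 and 16.7 CPM in PBS. PDT 1 was again the highest library, and the log2 difference was 0.025 ± 0.42, and −0.60 without PDT 1.

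**Figure D2:**
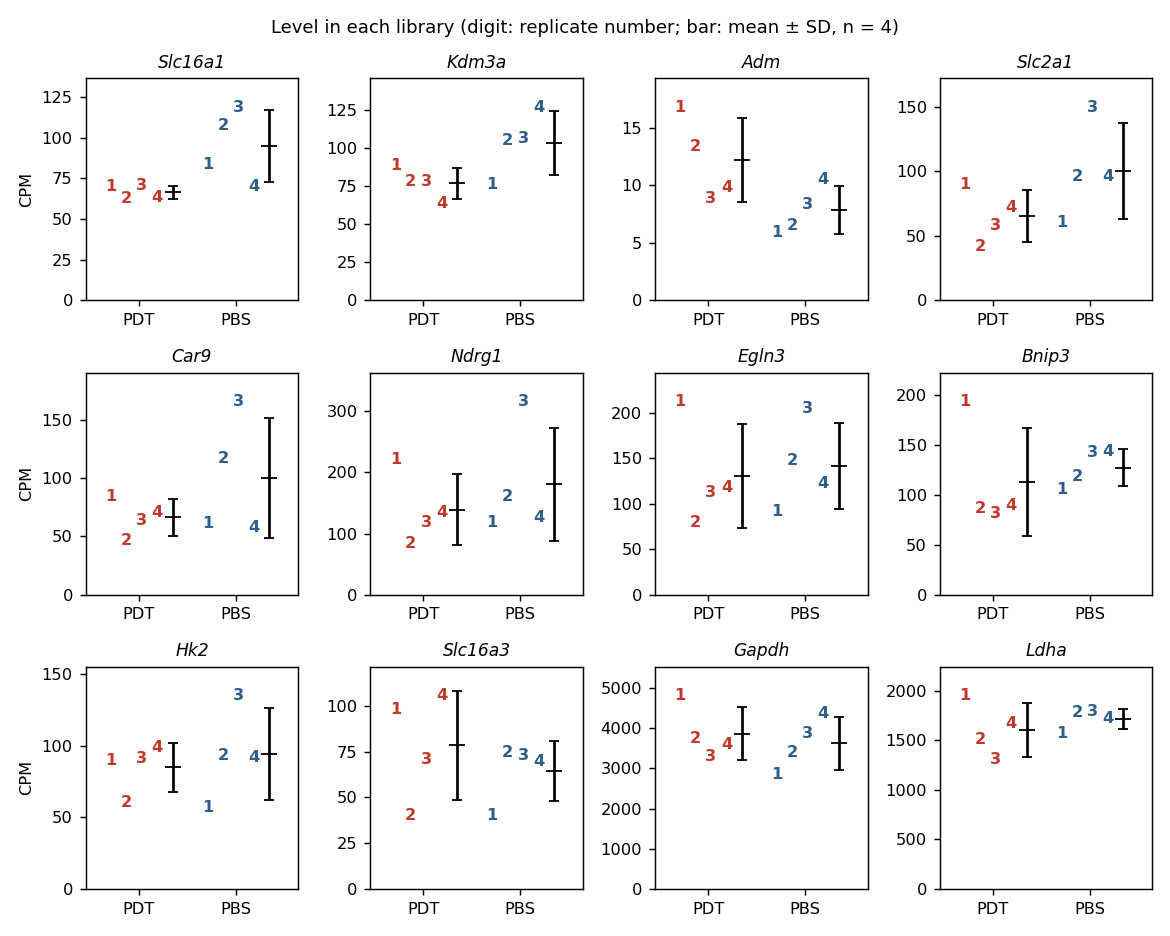
CPM of 12 genes (vertical axis, starting at 0) in each library, where a digit is the replicate number, PDT is red and PBS is blue, and the bar is the mean ± SD of 4 libraries. PDT 1 is high for Bnip3 and Egln3, PBS 3 is high for Slc2a1, Car9, Ndrg1 and Egln3, and the groups overlap in every panel.

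Taken over all 32 members, libraries of the same group differed about as they did over all genes tested, which were not matched in level. The ratio of the highest to the lowest library had a median of 1.60 in PDT and 1.58 in PBS over the 32 members, where over all genes tested it was 1.59 in PDT and 1.67 in PBS. Slc16a1 was the most even within PDT, at 1.12-fold. The 6 hypoxia targets had a median within-group SD of log2 CPM of 0.50 in PDT and 0.47 in PBS, where over all genes tested it was 0.30 in PDT and 0.33 in PBS. The 13 enzymes had medians of 0.32 in PDT and 0.26 in PBS. PDT 1 was the highest of the 8 libraries for 14 of the 32 members (43.8%), where it was so for 14.1% of all genes tested. PBS 3 was the highest for 8 members (25%, against 16.1% of all genes). PBS 1 was the lowest for 12 members (37.5%, against 19.2%) and PDT 2 for 9 (28.1%, against 8.19%). Members share libraries and their values are not independent, so these shares are descriptions.

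PDT 1 was the highest library for the 13 enzymes, the oxygen sensing genes and the hypoxia targets, while the roles differed in PDT 4 and PBS 3. As a summary, the log2 CPM of each gene was centred on its mean over the 8 libraries and the median over the genes of a role was taken. For the 6 hypoxia targets this median was 0.67, −0.56, −0.30 and −0.17 in PDT 1 to PDT 4 and −0.33, 0.083, 0.48 and 0.23 in PBS 1 to PBS 4. For the 13 enzymes it was 0.33, −0.12, −0.13 and 0.22 in PDT and −0.38, −0.053, −0.022 and 0.11 in PBS. PDT 4 was thus among the higher libraries for the enzymes and below the mean for the hypoxia targets, while PBS 3 was high for the hypoxia targets and near the mean for the enzymes. For glucose uptake and phosphorylation PBS 3 was the highest at 0.44 and PBS 1 the lowest at −0.45. The transcripts of the 13 enzymes and Ldha together took 1.42%, 1.19%, 1.12% and 1.29% of all reads in PDT, and 0.992%, 1.225%, 1.25% and 1.295% in PBS.

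**Figure D3:**
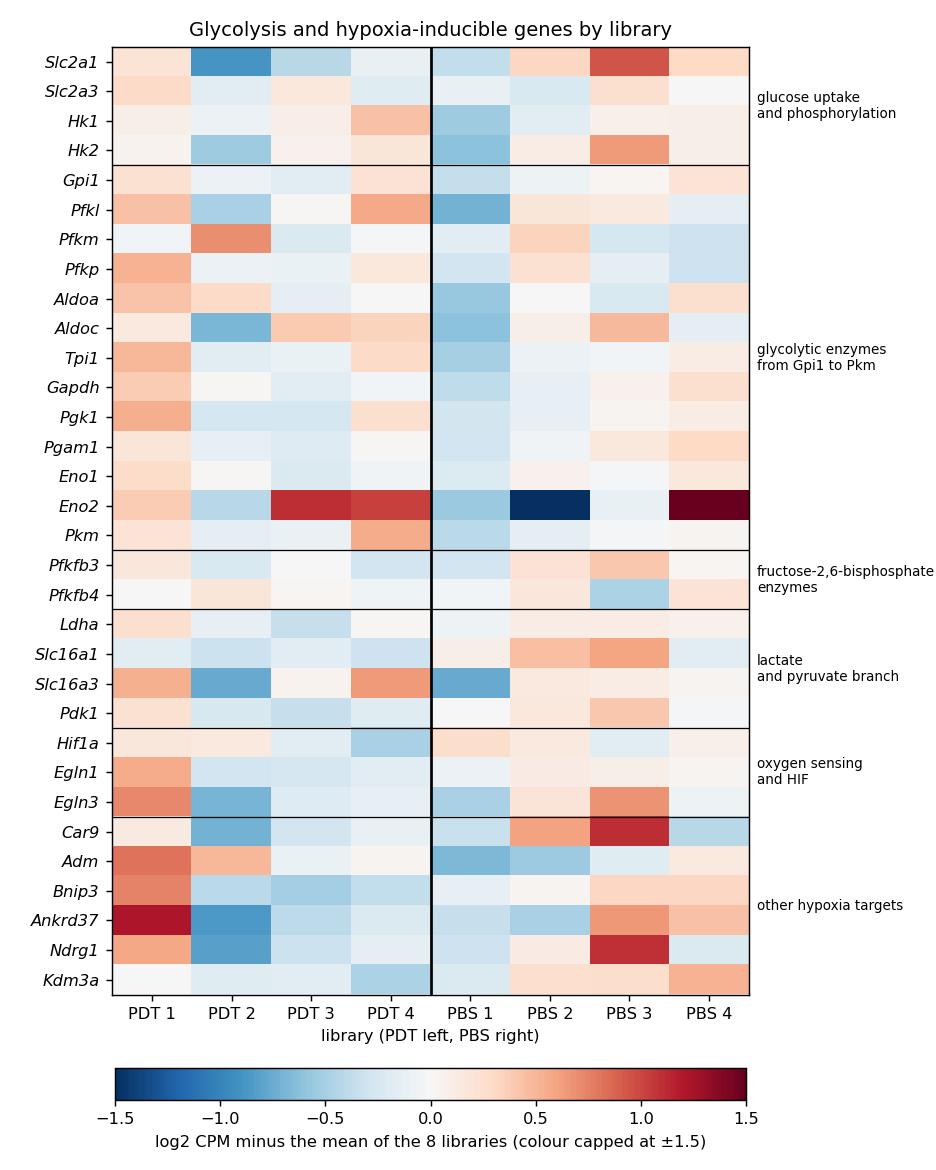
Log2 CPM of each of the 32 genes (rows, grouped by role) in each library (columns, PDT left of PBS), minus the gene's mean over the 8 libraries. Red is above and blue below that mean, with PDT 1 mostly red, PBS 1 and PDT 2 mostly blue, and no role that separates the groups.

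**Figure D4:**
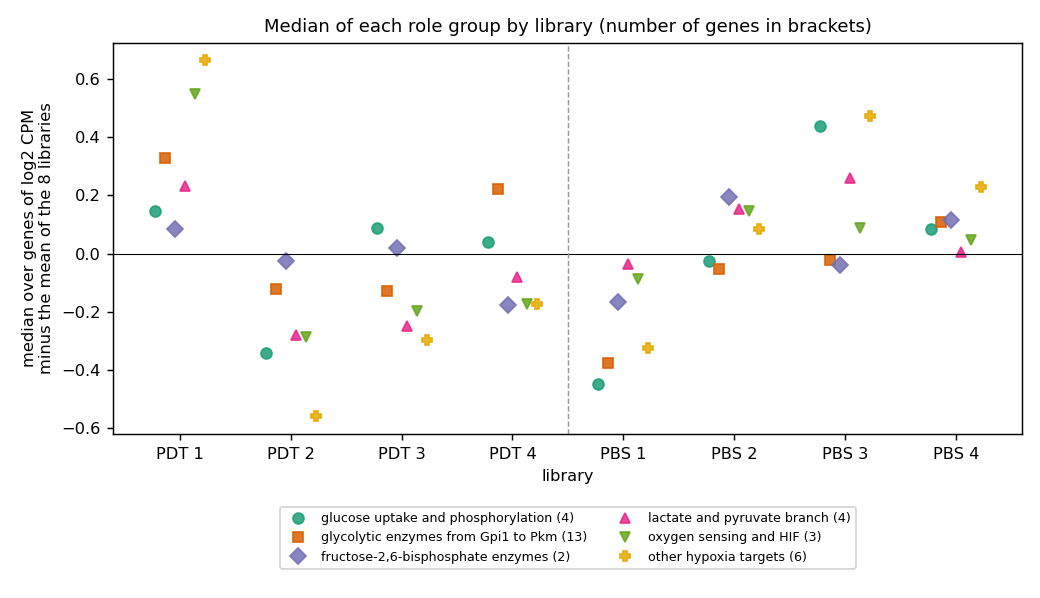
Median over the genes of each role of log2 CPM minus the gene's mean over the 8 libraries (vertical axis) in each library (horizontal axis, PDT left of PBS), 1 symbol per role. The hypoxia targets reach 0.67 in PDT 1 and 0.48 in PBS 3, and the 13 enzymes are lowest in PBS 1 at −0.38.

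Genes that serve the same step were also compared as ratios within a library, which do not depend on scaling between libraries. Of 10 ratios, 0 passed a two-sided exact permutation test over 70 assignments after adjustment over the 10, and 0 had an unadjusted p under 0.05. The smallest p this design allows is 0.0286, reached only when the groups separate completely, and the next possible p is above 0.05. After adjustment none could have passed unless most of the 10 ratios separated completely. The test could therefore not decide on lesser differences. Reads of Slc2a3 per read of Slc2a1 were 0.0853, 0.133, 0.119 and 0.0768 in PDT and 0.0967, 0.0556, 0.0496 and 0.0649 in PBS, a log2 difference of 0.65 (exact permutation p = 0.0857, adjusted p = 0.286). The groups overlapped through PBS 1. Reads of Ldhb, the subunit that favours pyruvate, per read of Ldha were 0.00567, 0.00647, 0.00778 and 0.00513 in PDT and 0.00632, 0.00344, 0.00303 and 0.00367 in PBS. This difference was also 0.65 with an exact permutation p of 0.0857 (adjusted p = 0.286), and again only PBS 1 lay among the PDT libraries. The ratio of Slc16a3 to Slc16a1 was 1.401, 0.636, 1.002 and 1.66 in PDT and 0.481, 0.697, 0.615 and 0.991 in PBS, a log2 difference of 0.71 (exact permutation p = 0.114, adjusted p = 0.286). Hk2 over Hk1 was 0.985, 0.744, 0.984 and 0.845 in PDT and 0.953, 1.21, 1.49 and 1.01 in PBS, a log2 difference of −0.38 (exact permutation p = 0.114, adjusted p = 0.286). The other 6 ratios, among phosphofructokinases, aldolases, enolases, Pfkfb enzymes and prolyl hydroxylases, had adjusted p-values of 0.857 to 0.971.

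Further genes of the same pathways, on lists of 81 genes in all, gave 0 calls in edgeR either, with 10 at an unadjusted p under 0.05 and 4 called by DESeq2. Over all genes tested those shares were 16.5% and 5.24%, and the counts here were not above them. Of 12 genes of pyruvate oxidation, which include kinases that oppose it, 5 had a log2 difference above 0 and 7 below it. Among them 3 had an unadjusted p under 0.05, and in those 3 the groups did not overlap, where 16.5% of all genes had such a p and 10.1% did not overlap. Pdp2, a phosphatase that activates pyruvate dehydrogenase, was at 8.11 to 9.10 CPM in PDT and 11.5 to 15.4 CPM in PBS (−0.65 ± 0.18, adjusted p = 0.105 by edgeR, 0.0305 by DESeq2). Pdk2, a kinase with the opposite action, was at 21.2 ± 3.58 CPM in PDT and 12.4 ± 3.16 CPM in PBS (0.77 ± 0.22, adjusted p = 0.114 by edgeR, 0.0293 by DESeq2). Pdhb, a subunit of the pyruvate dehydrogenase complex itself, differed by −0.34 ± 0.12 (adjusted p = 0.172), and was chosen for mention after its values were seen.

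In 28 other hypoxia-inducible genes 15 had differences above 0 and 13 below, with a median of 0.0032. The lipid droplet protein gene Plin2 was at 200.4 to 337 CPM in PDT and 160.3 to 199.9 CPM in PBS (0.51 ± 0.16, adjusted p = 0.148 by edgeR, 0.0442 by DESeq2), and the cytokine gene Mif averaged 507 ± 131 CPM in PDT and 301 ± 125 CPM in PBS (0.75 ± 0.27, adjusted p = 0.195 by edgeR, 0.0449 by DESeq2). Vegfa, the vessel growth factor gene most often read as a sign of hypoxia, differed by −0.29 ± 0.20 (adjusted p = 0.533), and was likewise chosen after its values were seen. Of 14 tested HIF pathway components 6 had differences above 0 and 8 below. Egln2, another HIF prolyl hydroxylase, did not overlap between groups, at 60.2 to 86.7 CPM in PDT and 49.3 to 56.8 CPM in PBS (0.38 ± 0.14, adjusted p = 0.196). That makes 1 of the 14 without overlap, where 10.1% of all genes tested did not overlap. Elob, a subunit of the ligase that destroys hydroxylated HIF, differed by 0.28 ± 0.13 (adjusted p = 0.307).

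Of 18 other glycolysis genes 13 had differences above 0 and 5 below, with a median of 0.21. Tigar, a phosphatase that opposes Pfkfb3, was at 12.3 to 18.2 CPM in PDT and 9.74 to 12.2 CPM in PBS (0.49 ± 0.18, adjusted p = 0.204). Slc16a7, the monocarboxylate transporter MCT2, was at 4.25 to 6.07 CPM in PDT and 2.18 to 3.91 CPM in PBS (0.81 ± 0.31, adjusted p = 0.215). Neither gene overlapped between the groups, which makes 2 of the 18, where 10.1% of all genes tested did not overlap. Of 8 pentose phosphate genes 5 had differences above 0 and 3 below, and 0 had an unadjusted p under 0.05, the nearest being the transaldolase gene Taldo1 at 0.23 ± 0.12 (adjusted p = 0.37) and the dehydrogenase gene Pgd at 0.23 ± 0.14 (adjusted p = 0.463).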

How the data were processed

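Per the labels' protocols, Trizol RNA of 8 tumour samples was freed of ribosomal RNA, and strand-preserving libraries were sequenced. The authors deposited raw read counts per gene with Ensembl identifiers and symbols, per the file headers. Per the submitters' processing notes, cutadapt 4.6, STAR 2.7.11b and GRCm39 were used, in roles that the notes do not state. Which counter, strand setting and gene annotation served is not given in the sources used here. Between 77.9% and 83.8% of counts from 1 to 20 were even, as when both reads of a pair are counted, which the notes do not state. The 484 rows without a symbol held 0.0128% to 0.0176% of reads.

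Counts were tested with R 4.3.3 and edgeR 4.0.16: filterByExpr (16588 genes), TMM scaling, and the quasi-likelihood test of PDT minus PBS without covariate, with Benjamini-Hochberg adjustment over all genes tested and a threshold of 0.05. The biological coefficient of variation was 0.392. Standard errors are the log2 difference divided by the root of F. Ratios of genes were log2 CPM differences with a prior count of 2. Alternatives were RLE and upper quartile scaling, testing every gene, keeping genes at 1 CPM or more in 4 samples, blocking on the replicate number, DESeq2 1.42.0, limma-voom (limma 3.58.1) with quality weights, counts divided by 2, genes of other tissues and mitochondria removed, and each library left out. The fit was checked on simulated counts. Chi-square per degree of freedom between libraries ran from 62.1 to 191, far above sampling noise, and none was a duplicate.

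The members and lists were chosen with earlier results of these data known. All 32 members are named, with full values for those at an unadjusted p under 0.05 and for others fixed by name. Full values are also given for Pfkm, Egln1, Ndrg1, Bnip3 and Ankrd37, which were not fixed beforehand. Of each further list the 2 genes with the smallest p are named. Exon lengths for levels per kilobase came from GENCODE M21, an annotation of GRCm38, by identifier. In that annotation exons of Pfkm share 18 bases with Senp1 (0.539% of Pfkm exons). Those of Pfkp share 748 with Pitrm1 (5.58%) and those of Ankrd37 share 57 with Ufsp2 (3.7%). These partners are on the opposite strand and well expressed. On the same strand, Pkm shares 767 bases (15.3%) with Gm49759, which held reads equal to 0.619% of those of Pkm. Pfkm shares 341 (10.2%) on its own strand with Gm26513, which held reads equal to 0.0374% of those of Pfkm. Hif1a likewise shares 148 (2.51%) with Gm49321, which is not in the count table. The values of these members are uncertain to the extent of such overlaps. Copies named after Gapdh, Aldoa, Pgk1, Pgam1, Eno1 and Ldha held at most 1.02% of their parent's reads, and how shared reads were assigned is not known.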

Additional observations from a re-analysis of the deposited data

Results flagged for a closer look

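Among 136 sets of 4 libraries examined, 10 had a library whose gap to the nearest other exceeded the critical share of the range for 4 values (Dixon's test at 95%), and chance flags about 1 set in 20. Bnip3 was at 193.5 CPM in PDT 1 and 81.0 to 89.4 CPM in PDT 2 to PDT 4, and Egln1 at 181.5 CPM in PDT 1 and 101.4 to 109.7 CPM in PDT 2 to PDT 4. The centred median of the 3 oxygen sensing genes in PDT 1 was likewise 0.55, against −0.29 to −0.18. In PDT 2, Pfkm was at 92.0 CPM against 48.6 to 55.3 CPM, and Pfkm reads per Pfkl read at 0.844 against 0.243 to 0.314. In PBS 1, Slc16a3 was at 40.2 CPM against 69.5 to 74.7 CPM, and the centred median of all 32 members was −0.33 against 0.080 to 0.11 in the other PBS libraries. Summed epithelial markers were 7332 CPM in PBS 3 against 3574 to 4051 CPM. Summed adipocyte markers were 464 CPM in PDT 3 against 68.5 to 79.4 CPM, and 365 CPM in PBS 2 against 31.1 to 36.5 CPM.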

How the results depend on the processing

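The number of members called stayed at 0 under all alternatives tried, while the number of genes called over the whole table, 39 (27 higher, 12 lower), did not hold. It was 69 (50 higher, 19 lower) with upper quartile scaling, 534 (395, 139) without a filter, 88 (60, 28) with 1 CPM in 4 samples, 869 (518, 351) by DESeq2, 167 (100, 67) by limma-voom and 67 (45, 22) with counts divided by 2. With the replicate number as a block it was 182 (148, 34). Same-numbered libraries deviated together only at correlations of 0.0385 to 0.069, and 0 of 8 correlated best with its own number. These correlations cannot settle whether same-numbered libraries share more than a number, such as a batch, which was not tested. Leaving out 1 library gave 0 to 122 genes (0 to 106 higher, 0 to 35 lower). The median of other glycolysis genes, 0.21, was 0.41 with the replicate block, 0.43 by limma-voom and 0.12 to 0.37 with 1 library left out, and that of other HIF pathway components, −0.11, ran from −0.094 to −0.029 with 1 left out. Some differences changed sign. Ankrd37 was −0.16 with the replicate block and −0.19 by limma-voom, and Eno1 −0.068 by limma-voom. With 1 library left out the log2 differences ran from −0.029 to 0.16 for Slc2a3, −0.33 to 0.075 for Hk2, −0.0045 to 0.40 for Pfkm, −0.062 to 0.30 for Aldoc, −0.019 to 0.21 for Gapdh, −0.0066 to 0.28 for Pgk1, −0.16 to 0.041 for Pgam1, −0.073 to 0.087 for Eno1, −0.13 to 1.47 for Eno2, −0.074 to 0.14 for Pfkfb4, −0.27 to 0.057 for Egln1, −0.44 to 0.12 for Egln3, −0.60 to 0.27 for Ankrd37 and −0.68 to 0.041 for Ndrg1. Without a change of sign, they ran from −0.22 to −0.022 for Hif1a, −0.19 to −0.00071 for Ldha and −0.29 to −0.071 for Pfkfb3. Log2 ratios ran from −0.16 to 0.12 for Pfkp over Pfkl, −0.48 to 0.12 for Pfkm over Pfkl, −0.0050 to 0.37 for Pfkfb4 over Pfkfb3, −0.40 to 0.093 for Aldoc over Aldoa and −0.21 to 0.12 for Egln3 over Egln1. The causes of these shifts were not tested.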
